A study of Nothobranchius furzeri with 15 samples.

Results

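In the skin of Nothobranchius furzeri, the turquoise killifish, an annual fish with a very short life, there were 142 genes whose level in all 10 rotenone samples lay below the level in all 5 solvent samples. These genes were chosen by that property alone. The rule took CPM (a gene's counts relative to a common library total, scaled by edgeR's TMM factors) and admitted genes with a mean of at least 1 CPM over the 15 samples that were not among the 100 genes with the highest mean CPM in solvent skin. It admitted 16402 of the 26739 genes in the table. The 142 genes are 0.866% of those admitted, and 93 genes, 0.567%, lay above every solvent sample in all rotenone samples.

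All 15 samples came from male fish of the GRZ strain at 9 weeks of age. The 5 controls were given the solvent dimethyl sulfoxide (DMSO), 5 samples came from fish given 15 pM rotenone and 5 from fish given 150 pM rotenone. The sources used here state neither the route and length of exposure nor that each sample came from another fish. The p-values weigh differences between groups against the spread among these samples only, and part of that spread may be technical. Whole skin was measured, in which fewer cells of a type and less RNA per cell cannot be told apart.

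Rotenone blocks complex I of the mitochondrial respiratory chain, the enzyme that takes electrons from NADH and passes them to ubiquinone while pumping protons across the inner membrane. Partial inhibition of complex I has been studied as a modifier of ageing and lifespan, in this fish among other animals. Skin of a teleost joins a living, mucus-secreting epidermis with a dermis that bears scales and pigment cells, so its RNA comes from many cell types. Genes carry only numbered identifiers in the files, and a RefSeq table of 38438 genes matched 0 of the 26739 identifiers. The genes are therefore described by their values, no function is assigned to any of them, and the labelled tissue was not checked against markers.

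The total count per sample ranged from 21857670 to 28314659, with a median of 24600127. In DMSO skin the top 20 genes of each library by count took up 29.6 ± 3.14% of all counts; the figure was 24.9 ± 7.46% at 15 pM and 27.9 ± 2.82% at 150 pM (SD, n = 5). In exact two-sided permutation tests the share did not differ between groups past the threshold, with adjusted p = 0.468 over 6 tests of sample properties. Replicates 1 and 4 of the 15 pM group stood apart, with 18.1% and 15.9%, against 24.8% to 33.4% in the other samples. Replicate numbers 1 to 5 within a group follow the order of registration.

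The gene set was not confined to rare transcripts. Its mean level over the 15 samples had a median of 14.6 CPM, from 1.13 to 485 CPM, and the median of all admitted genes was 13.2 CPM. Per kilobase of gene length, the mean level in DMSO skin had a median of 6.27 CPM per kilobase in the set and of 5.00 in all admitted genes, and in the set it ranged from 0.564 to 277. Gene length had a median of 3560 bases in the set, with the middle of the distribution between 1720 and 4950 bases, and a median of 2840 bases in all admitted genes. The lowest count of a gene in any sample was 9 in the set, and 96 of the 142 genes had over 100 counts in every sample, whereas 25 had under 50 counts in some sample. Together the 142 genes held 0.567 ± 0.0253% of the counts in DMSO skin, 0.363 ± 0.0496% at 15 pM and 0.398 ± 0.0548% at 150 pM (SD, n = 5).

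The gap that defines the set was narrow for most of its genes. The ratio of the highest rotenone CPM to the lowest DMSO CPM had a median of 0.951 and a lowest value of 0.736. It was under 0.95 for 70 genes, under 0.9 for 30 and under 0.8 for 2. The genes just inside the limit had ratios of 0.9993 and 0.9992, and the genes just outside had 1.001 and 1.001. Which samples set the gap differed between genes. The lowest DMSO sample was replicate 5 for 53 genes (37.3%), replicate 1 for 39 (27.5%) and replicate 3 for 29 (20.4%). It was replicate 2 for 15 (10.6%) and replicate 4 for 6 (4.23%). Over all admitted genes these replicates were the lowest for 29.4%, 22.8%, 22.8%, 12.8% and 12.2%, so a similar order was seen outside the set. Among the rotenone samples, replicate 4 of the 150 pM group was highest for 39 genes and replicate 5 for 22. Replicate 3 of that group was highest for 0 genes, and the other 7 rotenone samples were highest for 4 to 16 genes each. Without DMSO replicate 1, 3 or 5 the rule gave 223, 221 and 272 genes, and without 15 pM replicate 5 it gave 222. Leaving out 15 pM replicates 1 and 4 together gave 296 genes, of which 141 were among the 142. With fewer samples the rule is easier to meet, so the direction of these changes was largely fixed in advance.

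**Figure D1:**
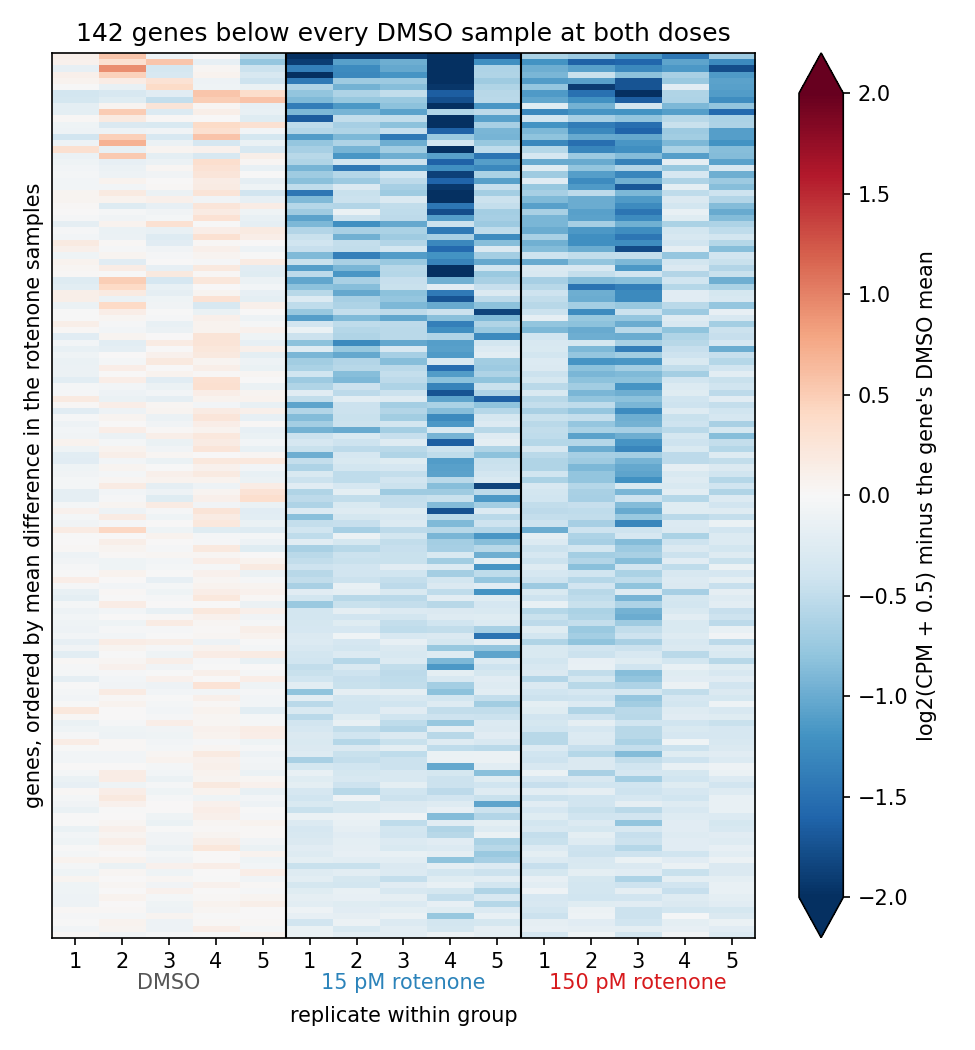
Each row is 1 of the 142 genes and each column 1 of the 15 samples. Colour gives log2(CPM + 0.5) minus the gene's mean over the 5 DMSO samples. Rows are ordered by the mean over the 10 rotenone samples, all of which are below the DMSO samples by the choice of genes. The darkest columns are replicate 4 at 15 pM and replicate 3 at 150 pM.

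The size of the decrease overlapped between the doses and was uneven between libraries. As a median over the 142 genes, log2(CPM + 0.5) minus the gene's DMSO mean was -0.47, -0.43, -0.47, -0.70 and -0.54 in 15 pM replicates 1 to 5. In 150 pM replicates 1 to 5 it was -0.42, -0.62, -0.78, -0.35 and -0.37. The DMSO samples lay between -0.05 and 0.08, and the median over all admitted genes lay between -0.04 and 0.01 in every sample. Thus 15 pM replicate 4 and 150 pM replicates 2 and 3 were the lowest, and the ranges of both doses overlapped. Because the genes were chosen for these values, the distance from DMSO is a description and has no test.

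Some of the genes were far lower in a single library than in the rest of its group. In 15 pM replicate 4 the level was 1 or more below the DMSO mean on the log2 scale for 53 genes, and in 150 pM replicate 3 for 39 genes. This held for 5 to 26 genes in each of the other rotenone samples. The share of all admitted genes with such values was not computed, so these counts describe the set only. Replicate 4 was the lowest 15 pM sample for 70 of the 142 genes (49.3%), against 31.3% of all admitted genes. It was the highest 15 pM sample for 25, and for 32.9% of all admitted genes. Replicate 3 was the lowest 150 pM sample for 82 genes (57.7%), against 23.5% of all admitted genes. It was the highest for 1, and for 20.8% of all admitted genes. The rule caps the rotenone samples from above and not from below. How far this shapes which library is lowest was not tested. For 43 genes both libraries were the lowest of their groups. No link between the libraries is read from this count, since they were separately the lowest for 49.3% and 57.7% of the set. The share of counts in the 20 most abundant genes was 15.9% in 15 pM replicate 4, the smallest of the series, and 32.0% in 150 pM replicate 3, the largest of its group. The part of these shares in the result was not tested.

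**Figure D2:**
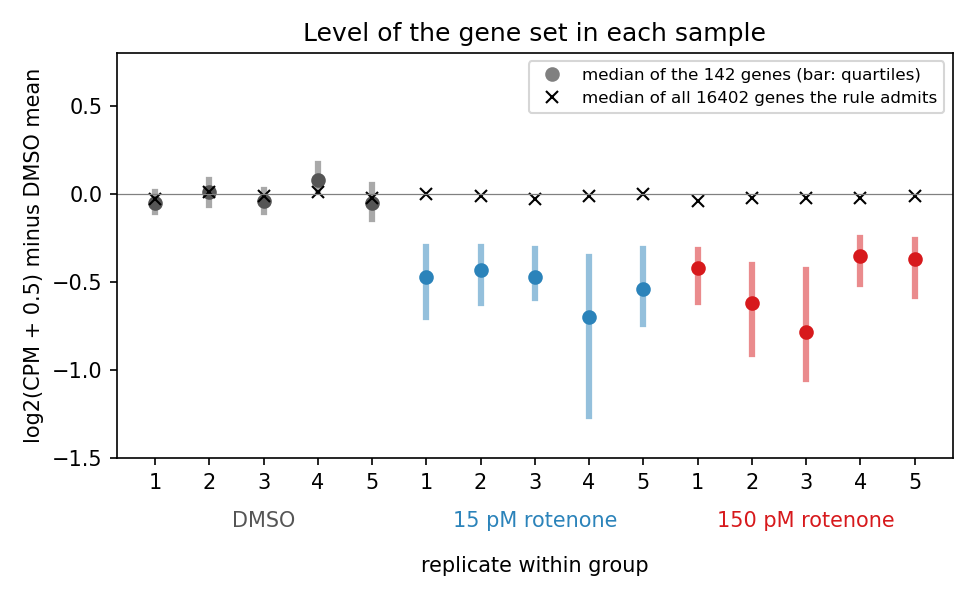
Points give the median over the 142 genes of log2(CPM + 0.5) minus the gene's DMSO mean in each of the 15 samples, bars the quartiles over genes, and crosses the median over all 16402 admitted genes. The gene set lies at -0.35 to -0.78 in the rotenone samples, while the crosses stay between -0.04 and 0.01.

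The rule was also applied with 2 samples set aside at a time, on CPM scaled over all 15 samples. In turn, 1 DMSO and 1 rotenone sample were set aside, the rule was applied to the remaining samples, and the chosen genes were compared between the 2 samples set aside. The choice gave 150 to 369 genes over the 50 pairs. In every pair most of these genes were lower in the rotenone sample, with a median share of 87.6% and a range of 60.7% to 98.1%. Over all admitted genes the share was 46.5% to 55% in the same pairs, and it was exceeded by the chosen genes in 50 of 50 pairs. The median log2 difference of the chosen genes was -0.35 as a median over pairs, from -0.80 to -0.14. For 15 pM samples the median share was 83.9% and for 150 pM samples 89.7%. The lowest shares belonged to 15 pM replicate 5, at 60.7% to 83.9%, and 15 pM replicate 4, at 61.2% to 77.6%. Their lists were also among the longest, with 218 to 369 and 222 to 335 genes. Pairs share samples and the genes are not independent, so no p is given. The shares describe the chosen genes and do not test them.

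**Figure D3:**
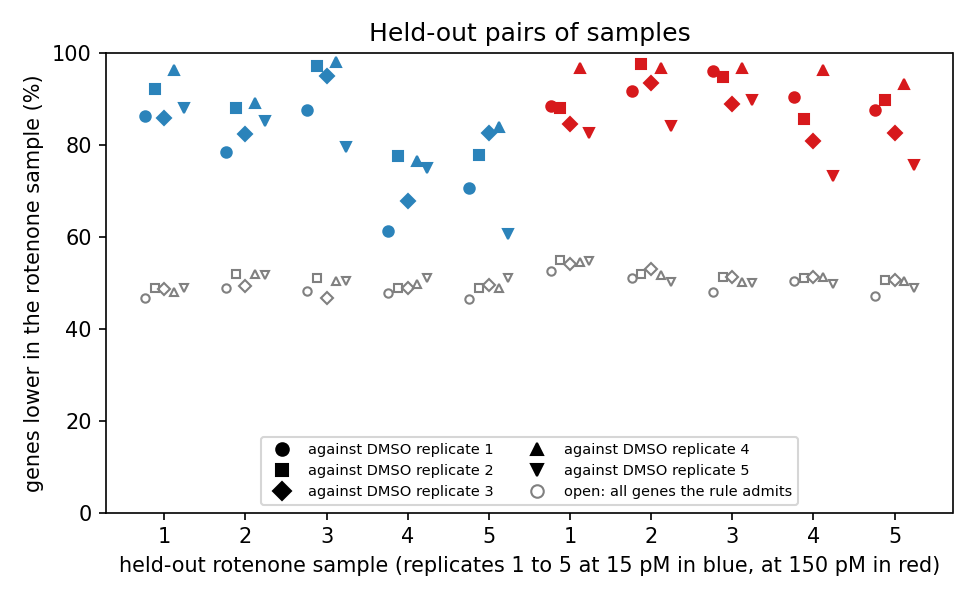
For each of the 10 rotenone samples set aside, filled symbols give the percentage of genes, chosen without the pair, that were lower in the rotenone sample than in the DMSO sample set aside with it. Open symbols give the same percentage over all admitted genes, near 50.3%. All filled symbols lie at 60.7% or above.

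Fold changes from edgeR's fit of all 15 samples, in which 18253 genes were tested, place the set at each dose. All 142 genes entered the test. At 15 pM their log2 fold changes against DMSO had a median of -0.57, with quartiles of -0.80 and -0.40 and a range of -2.48 to -0.19. At 150 pM the median was -0.52, with quartiles of -0.73 and -0.38 and a range of -1.87 to -0.18. The median of all tested genes was 0.00 in both comparisons. A value of -1 means a level of 0.5 of that in DMSO. It was reached or passed by 17 of the 142 genes at 15 pM and by 13 at 150 pM, while 3.42% and 3.33% of all tested genes had such values. Both comparisons use the same DMSO samples, and the rule used both, so nothing is read from the direction.

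By edgeR's quasi-likelihood test with Benjamini-Hochberg adjustment over all tested genes, 37 of the 142 genes were called lower at 15 pM (26.1%), where the background was 0.679% of all tested genes. At 150 pM 2 genes were called (1.41%), with a background of 0.0438%. As the rule used these contrasts, the counts only say how many genes clear the adjusted threshold of 0.05. At an unadjusted p under 0.05 the counts were 139 genes at 15 pM and 130 at 150 pM, where 9.46% and 8.32% of all tested genes were lower by that measure. Of the 142 genes 1 was called at both doses, 36 at 15 pM only, 1 at 150 pM only and 104 at neither. The 105 genes not called at 15 pM had log2 fold changes of -1.66 to -0.19 there, with adjusted p from 0.051 to 0.278.

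Called and uncalled genes overlapped in level. Those called at 15 pM had a median DMSO level of 41.8 CPM and a median log2 fold change of -0.73, and those not called had 15.5 CPM and -0.50. When the set was ordered by mean CPM and cut into 3 parts, the lowest part (48 genes, median 4.90 CPM) had median log2 fold changes of -0.76 at 15 pM and -0.78 at 150 pM. The middle part (47 genes, 14.9 CPM) had -0.48 and -0.51, and the highest (47 genes, 52.8 CPM) had -0.51 and -0.40. The median standard error at 15 pM was 0.22, 0.14 and 0.12 in these parts, and 8, 6 and 23 genes were called. The share of all tested genes called at such levels was not computed, so these counts describe the set only. Genes with more spread need a larger mean fall to lie below every DMSO sample. The larger falls of the lowest part may thus come from the rule, which was not tested.

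Both counts moved with the test and the samples. At 15 pM DESeq2 called 110 genes and limma-voom (sample quality weights) 117, but 6 were called when only the 2 groups were fitted. Over all genes these fits called 1513, 1930 and 86 in either direction, against 320 in edgeR's fit of all 15 samples. Leaving out DMSO replicate 1, 2, 3, 4 or 5 gave 17, 11, 19, 11 and 21 of the 142 genes. Over all genes the calls were then 145, 118, 240, 119 and 180. Removing 15 pM replicate 1 or 3 left 19 and 18 of the 142 genes called, and removing 150 pM replicate 1 or 5 left 23 and 22. Calls over all genes fell as well, to 245 without 15 pM replicate 1 and 254 without 150 pM replicate 1. At 150 pM DESeq2 called 81 genes, limma-voom 132 and the fit of only the 2 groups 56. Over all genes these fits called 657, 2341 and 508 in either direction, against 19 in edgeR's fit of all 15 samples. Of the 142 genes, edgeR called 44 at 150 pM without 15 pM replicate 4, a sample of neither group compared. It called 4 without DMSO replicate 1 and 1 without DMSO replicate 2 or 150 pM replicate 1, 2 or 3. Without 150 pM replicate 5 it called 0, where 124 genes had an unadjusted p under 0.05. For all genes at 150 pM, edgeR called 62 without DMSO replicate 1 and 4 without DMSO replicate 2, in either direction. Without 150 pM replicate 1 it called 11, against 19 with all samples. Where calls over all genes are not given beside a fit, as for the 44 without 15 pM replicate 4, the count describes the set only. Whether the rest of the genes moved alike is then not shown here.

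The widest gap between the groups was that of Nfu_g_1_004022, a gene of low level. It had 1.4, 2.93, 1.49, 3.18 and 1.45 CPM in DMSO replicates 1 to 5. At 15 pM it had 0.644, 0.829, 0.415, 0.983 and 0.793 CPM, and at 150 pM 0.913, 0.725, 0.723, 1.03 and 0.651 CPM. DMSO replicates 2 and 4 were high, and the ranges of both doses overlapped in part. Behind these levels stand 38 to 78 counts in each DMSO library and 9 to 26 in each rotenone library. Its mean was 2.09 CPM in DMSO skin, 0.733 CPM at 15 pM and 0.808 CPM at 150 pM. It thus met the minimum mean of 1 CPM only through the DMSO samples, and its values against DMSO are a description. The log2 fold change by edgeR's fit was -1.5 at 15 pM with a standard error of 0.30 (adjusted p = 0.0243) and -1.35 at 150 pM with a standard error of 0.30 (adjusted p = 0.108). The call at 15 pM was lost without DMSO replicate 2 (adjusted p = 0.0751), DMSO replicate 4 (0.0709), 15 pM replicate 1 (0.0513) or 15 pM replicate 3 (0.0533), and with only the 2 groups fitted (0.0858). It was also lost by edgeR with these 2 groups and the number in the sample titles as a replicate block (0.182). At 150 pM the gene was called without 15 pM replicate 4 (adjusted p = 0.0433), with only the 2 groups (0.042), by DESeq2 (0.00612) and by limma-voom (0.0121).

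Next by this gap was Nfu_g_1_015268. Its DMSO samples had 5.01, 5.02, 5.10, 6.85 and 5.21 CPM. At 15 pM the values were 3.49, 3.39, 3.78, 1.41 and 2.63 CPM, and at 150 pM they were 2.66, 1.92, 1.45, 3.09 and 2.26 CPM. Replicate 4 was the highest DMSO sample and the lowest 15 pM sample, and both libraries noted above, 15 pM replicate 4 and 150 pM replicate 3, were the lowest of their groups. Neither comparison passed the threshold of edgeR's test, with a log2 fold change of -0.90 at 15 pM (standard error 0.25, adjusted p = 0.0746) and -1.24 at 150 pM (standard error 0.25, adjusted p = 0.0881). It was called at both doses by DESeq2 (adjusted p = 0.0133 and 0.00074) and by limma-voom (0.0253 and 0.00161). At 150 pM it was also called with only the 2 groups fitted (0.0237) and without 15 pM replicate 4 (0.0156).

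The gene called at both doses was Nfu_g_1_020069, named after its values were seen. It had 5.01, 8.49, 4.75, 6.32 and 5.18 CPM in the DMSO samples, 2.88, 2.80, 2.49, 3.66 and 3.91 CPM at 15 pM and 2.09, 2.28, 2.26, 2.45 and 1.65 CPM at 150 pM. All 150 pM samples lay below all 15 pM samples, by a small margin. The level fell by 0.92 on the log2 scale at 15 pM (standard error 0.19, adjusted p = 0.0285 by edgeR) and by 1.45 at 150 pM (standard error 0.20, adjusted p = 0.0136). The first call was lost when DMSO replicate 2 or 4 or 15 pM replicate 1 or 3 was left out (adjusted p 0.0543 to 0.0843) and with only the 2 groups fitted (0.0914), and the second without 150 pM replicate 5 (adjusted p = 0.0529). With the 2 groups and the title number as a replicate block, the first call was lost as well (edgeR, adjusted p = 0.26).

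**Figure D4:**
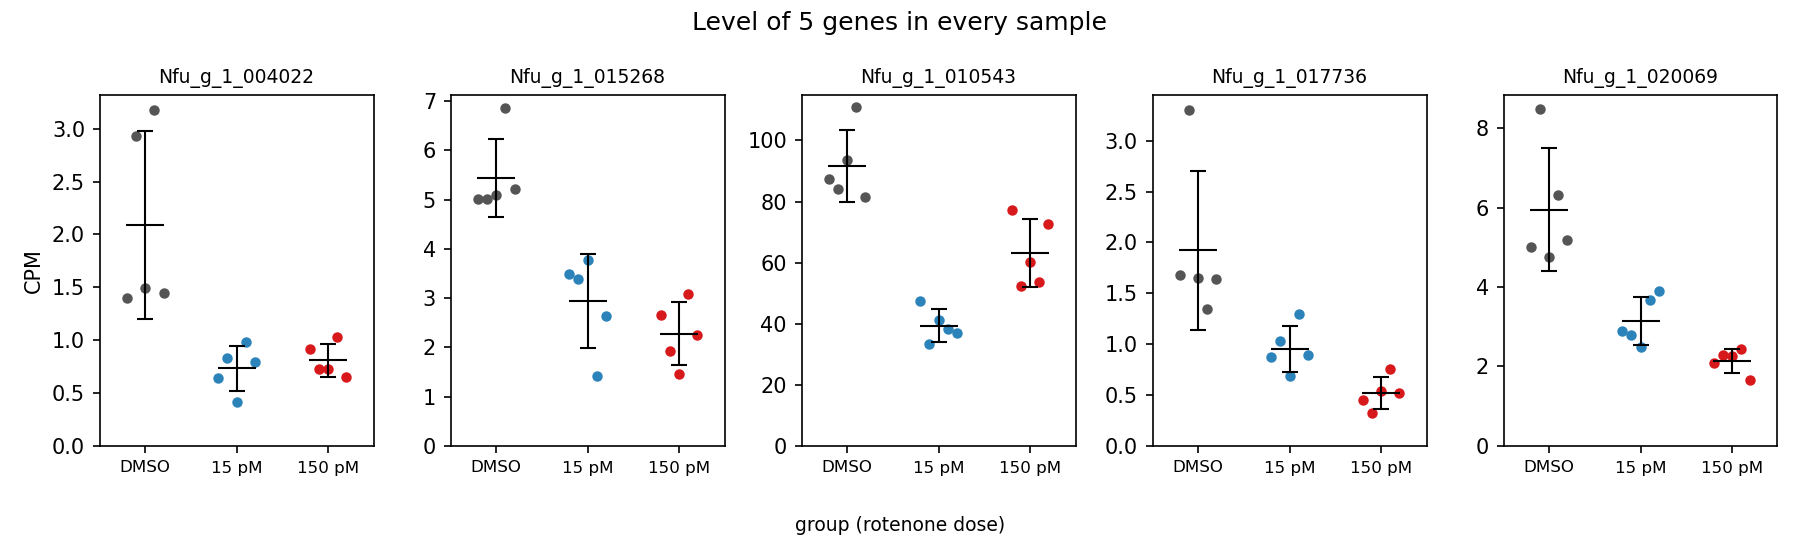
Points give the CPM of 5 genes in each sample, in a panel per gene with its own axis from 0, and lines the mean ± SD of each group (n = 5). In each panel all rotenone samples lie below all DMSO samples by the choice of genes. The doses do not overlap for Nfu_g_1_010543, where 15 pM is lower, or for Nfu_g_1_020069, where 150 pM is lower.

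The doses were then compared directly, since the difference between them did not enter the rule. The rule does cap all 10 rotenone samples at the lowest DMSO value, which favours genes with little spread among them, so a small difference between doses is partly fixed by the choice. The pooled within-group SD of log2(CPM + 0.5) had a median of 0.218 in the set and of 0.310 in all admitted genes. Mean CPM was lower at 15 pM for 74 of the 142 genes and lower at 150 pM for 68. By edgeR's fit the split was less even, with a positive log2 difference of 150 pM minus 15 pM for 87 genes and a negative one for 55. On the log2 scale, the difference of 150 pM minus 15 pM had a median of 0.03, with quartiles of -0.06 and 0.16 and a range of -0.86 to 1.52, and the median of all tested genes was -0.03. It lay within 0.5 of no difference for 131 genes of the set (92.3%) and for 73.8% of all tested genes.

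By edgeR's test 1 of the 142 genes was called higher at 150 pM than at 15 pM, where 0.8% of all tested genes were called, and 0 were called lower, where 0.898% were. These shares are near the background. The unadjusted p was under 0.05 for 11 genes, 7 higher and 4 lower at 150 pM, which is 7.75% of the set against 22.7% of all tested genes. Over all genes DESeq2 called 1690 and limma-voom 1413 in either direction. Of the 142 genes they called 4 and 5, all of them higher at 150 pM. For 131 genes the 95% interval of the difference held 0, and the distance from its centre to either end had a median of 0.33 on the log2 scale, from 0.17 to 0.92. Differences of that size could therefore have gone undetected. For 132 genes the interval lay within 1 log2 unit of no difference. The samples of the doses overlapped for 138 genes. They did not overlap for 3 genes that were lower at 15 pM, Nfu_g_1_010543 among them, and for 1 that was lower at 150 pM, Nfu_g_1_020069, whereas 2.49% and 3.2% of all admitted genes separated in these directions. The number of calls in the set was 2 when 15 pM replicate 1 or 150 pM replicate 2 or 4 was removed, 3 for 15 pM replicate 5 and 4 for 15 pM replicate 4. Calls over all genes moved as well: edgeR called 501 in either direction without 15 pM replicate 1, against 310 with all 15 samples. It called 361 without DMSO replicate 1 and 110 without DMSO replicate 4, with 1 gene of the set called in each. None remained by edgeR when 15 pM replicate 2 or 3 or 150 pM replicate 1, 3 or 5 was removed, where 10 to 15 genes of the set had an unadjusted p under 0.05. For the other samples removed, calls over all genes are not given here. Those counts describe the set only.

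**Figure D5:**
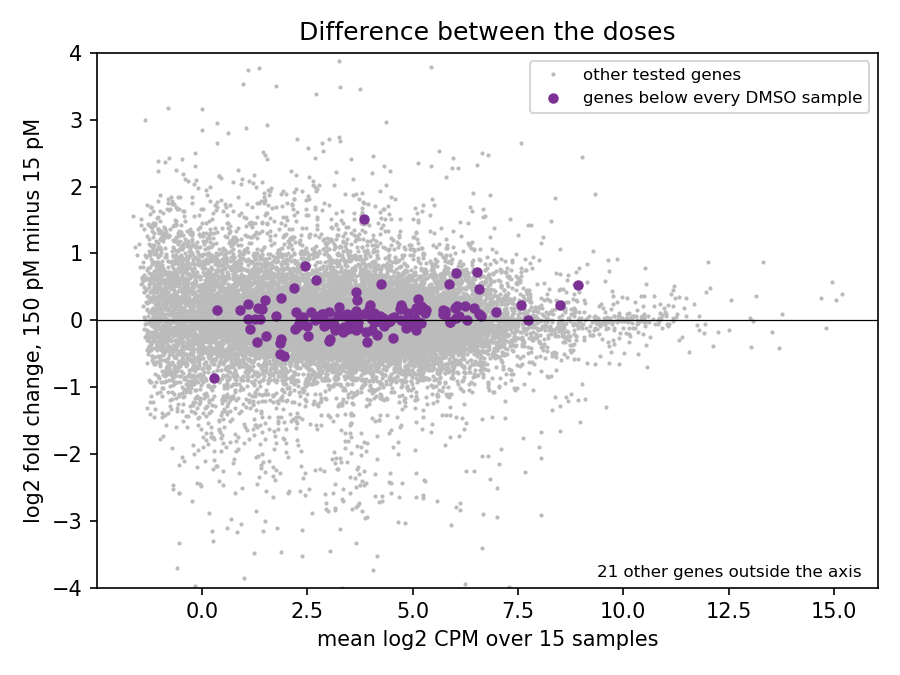
The log2 difference of 150 pM minus 15 pM is plotted against the mean log2 CPM over 15 samples, for the 142 genes (purple) and the other tested genes (grey, with 21 beyond the axis limit of 4). The set lies between -0.86 and 1.52, around a median of 0.03.

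The gene that differed between the doses was Nfu_g_1_010543, which was lower at 15 pM than at 150 pM. Its CPM was 87.4, 84.0, 93.5, 111 and 81.6 in the DMSO samples. At 15 pM it was 47.3, 33.3, 41.2, 38.4 and 36.9, and at 150 pM it was 77.1, 52.5, 60.2, 53.8 and 72.7. The 3 groups were separate, with every 150 pM sample between the 15 pM and the DMSO samples. The difference between doses was 0.71 on the log2 scale, with a standard error of 0.14, a 95% interval of 0.42 to 1.0 and an adjusted p of 0.0271 by edgeR. Against DMSO the log2 fold change was -1.23 at 15 pM (adjusted p = 0.00115) and -0.52 at 150 pM (adjusted p = 0.124). The call between doses was lost when 15 pM replicate 2 or 3 or 150 pM replicate 1, 3 or 5 was left out (adjusted p 0.0547 to 0.0868) and with only the 2 doses fitted (0.088). That between 15 pM and DMSO passed the threshold in each fit with 1 sample left out. It did not pass in edgeR's fit of these 2 groups with the number in the sample titles as a replicate block (adjusted p = 0.134).

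Among the genes lower at 150 pM than at 15 pM, Nfu_g_1_017736 had the smallest p. It had 1.68, 3.30, 1.65, 1.35 and 1.64 CPM in DMSO skin, 0.871, 1.03, 0.692, 1.30 and 0.892 CPM at 15 pM and 0.456, 0.326, 0.542, 0.751 and 0.521 CPM at 150 pM. DMSO replicate 2 was high, and the doses overlapped in 1 sample of each group, 15 pM replicate 3 and 150 pM replicate 4. At 150 pM the level rests on 9 to 19 counts per sample. The mean was 1.92 CPM in DMSO skin, 0.956 CPM at 15 pM and 0.519 CPM at 150 pM. This gene too met the minimum mean of 1 CPM only through the DMSO samples, so its values against DMSO are a description. The log2 difference between doses was -0.86, with a 95% interval of -1.49 to -0.23, which did not pass the adjusted threshold (adjusted p = 0.112 by edgeR). It is the gene called at 150 pM only, where the log2 fold change against DMSO was -1.87 (standard error 0.29, adjusted p = 0.02). At 15 pM it was -1.01 (standard error 0.28, adjusted p = 0.0764). The call was lost without DMSO replicate 2 (adjusted p = 0.0571) and when 150 pM replicate 1, 2, 3 or 5 was left out (adjusted p 0.0605 to 0.0811).

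The largest fold change of the set was that of another gene at 15 pM, with a log2 fold change of -2.48 (adjusted p = 0.0127 by edgeR) and of -0.96 at 150 pM (adjusted p = 0.302). No other log2 fold change in the set reached -2 at either dose.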

How the data were processed

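Skin RNA-seq libraries came from an unstranded TruSeq RNA kit (version 2), per the labels' protocols. Reads of a gene and of an antisense partner can therefore not be separated. The submitters' processing notes name CASAVA 1.8.2, STAR 2.4.1d and featureCounts 1.4.6-p4. The genome build, the annotation and the handling of reads shared by near-identical genes are not stated there, so counts of such genes are uncertain. The authors deposited raw counts per gene and a table of RPKM. The deposited RPKM values of 3936 well-covered genes gave 1 gene length in all samples (within 1%) for 0% of genes with the sample's own total and for 100% with the 15 totals repeated down the rows. They served only to recover gene lengths.

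Counts were analysed in R 4.3.3 with edgeR 4.0.16 (filterByExpr, minimum count 10 and minimum total 15; TMM; glmQLFit with 3 group means and no covariates; Benjamini-Hochberg). Standard errors follow from the fold change and the F statistic. All 15 samples were used, with groups from the labels; no libraries were identical. Alternatives were DESeq2 1.42.0, limma 3.58.1 with voom and quality weights, other scaling and filters, fits of 2 groups, title numbers as blocks and leaving out each sample. Leaving out 15 pM replicates 1 and 4 together was added after seeing the data. The code was run on simulated data with planted changes and gaps, as a check that it works. Those were larger than most in the set, so the run does not measure how well such small falls are found. The members, lists and tests were chosen with earlier results of these data known. Genes were named as follows: the 2 with the lowest ratio of highest rotenone to lowest DMSO CPM, and the gene with the smallest p in each direction between doses.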

Additional observations from a re-analysis of the deposited data

Results flagged for a closer look

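In 27 groups of 5 values, 3 held a sample far from the others of its group. Most of these groups hold values of the chosen genes, which the rule used, so no chance rate is set beside this count. DMSO replicate 4 had 6.85 CPM of Nfu_g_1_015268, against 5.01 to 5.21 CPM in the other DMSO samples. For Nfu_g_1_017736, DMSO replicate 2 had 3.30 CPM and the others 1.35 to 1.68 CPM. The total count of 150 pM replicate 2 was 28314659, against 23983152 to 24878602 in the other 150 pM samples. The level of Nfu_g_1_010543 differed between the doses by 0.71 on the log2 scale (edgeR, adjusted p = 0.0271), with all 5 samples at 150 pM above all 5 at 15 pM. It was the 1 gene of the 142 called between doses, where 0.8% of all tested genes were called higher at 150 pM. The call was lost in 5 of 15 fits with 1 sample left out. It was also lost with only the 2 doses fitted (edgeR, adjusted p = 0.088).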

How the results depend on the processing

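The number of genes below every DMSO sample was 144 with DESeq2 size factors, 147 with upper-quartile factors and 130 with library totals only, but the genes were not the same: 133, 126 and 65 of them were among the 142. It was 146 with no minimum level and 117 with a minimum of 5 CPM. When a single sample was left out the number ranged from 144 to 272, and it was 296 without 15 pM replicates 1 and 4. With fewer samples the rule is easier to meet, so a rise was largely fixed in advance. The count of the 142 genes called lower at 15 pM was 110 by DESeq2, 117 by limma-voom and 6 with only the 2 groups, and ranged from 11 to 54 with 1 sample left out. At 150 pM it was 81, 132 and 56, ranged from 0 to 44, and was 53 without 15 pM replicates 1 and 4. Between the doses it was 2 with DESeq2 size factors and with upper-quartile factors, 4 by DESeq2, 5 by limma-voom, 3 without 15 pM replicates 1 and 4, and 0 with only the 2 groups (9 at an unadjusted p under 0.05), and ranged from 0 to 4 with 1 sample left out. Over all genes, edgeR's fit of all 15 samples called 320 in either direction at 15 pM, 19 at 150 pM and 310 between the doses. By DESeq2 these numbers were 1513, 657 and 1690, and by limma-voom 1930, 2341 and 1413. With only the 2 groups they were 86, 508 and 44. Leaving out 1 sample moved them as well. Without DMSO replicate 2 edgeR called 118, 4 and 153, and without 15 pM replicate 1 it called 245, 21 and 501. Where such numbers are not given beside a fit, its count of the 142 genes describes the set only. The cause of the changes in calls and in the genes chosen was not tested.

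The titles give DMSO and 15 pM samples the same numbers. With the title number as a replicate block, in edgeR's fit of these 2 groups, 0 of the 142 genes were called at 15 pM. Of these genes 123 had an unadjusted p under 0.05. Over all genes this fit called 2, and the same fit without the block called 86, 6 of them in the set. Deviations of same-numbered samples from their group means correlated at -0.27 to 0.33 across genes. Of 5 DMSO samples 0 correlated best with the 15 pM sample of their own number. With so few samples this cannot settle whether the numbers mark pairs.

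Low counts limit the genes with under 50 counts in a sample, 25 of the 142. The 95% intervals between doses reached 0.33 to either side on the log2 scale as a median.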
